A study of Homo sapiens with 6 samples.

Results

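Upon PQBP1 knockdown, 7 genes of nuclear bodies and nuclear RNA were followed: the long non-coding RNAs MALAT1, NEAT1 and KCNQ1OT1 and the genes of the paraspeckle proteins SFPQ, NONO, PSPC1 and RBM14. They were taken by gene name as 7 of the 32679 genes in the deposited table, and 6 of them were among the 11413 genes with a mean level high enough to be tested. PQBP1 is a splicing factor, and the study asked which genes respond to its loss in ovarian cancer cells. Poly(A) RNA of HEY cells, an established ovarian cancer line, was sequenced in 3 samples with a control hairpin (shNC) and 3 with a hairpin against PQBP1 (shPQBP1). All 6 samples were labelled day 3. The shPQBP1 samples received doxycycline at 1 µg per ml, which switches on an inducible construct, and the treatment of the shNC samples was labelled as none, so that by these labels hairpin and drug cannot be told apart. The methods describe stable lines made with lentivirus and selected with puromycin. A single hairpin per group was labelled, and the labels do not say whether the samples of a group came from separate cultures. The study speaks of independent experiments in general, and if these samples were not, p-values measure only the spread between them, which may be technical.

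Paraspeckles are nuclear bodies that form on NEAT1. The long NEAT1 transcript, NEAT1_2, is their scaffold, and SFPQ, NONO and PSPC1, a family of related RNA-binding proteins known as the DBHS family, coat it. RBM14 is a further protein that paraspeckle assembly needs. MALAT1 is an abundant RNA of nuclear speckles, where splicing factors gather, and KCNQ1OT1 is an antisense RNA that silences genes in cis in an imprinted domain.

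The ends of MALAT1 and NEAT1 bear on what poly(A) libraries can hold. As background, MALAT1 and NEAT1_2 are not cleaved and polyadenylated in the usual way. RNase P cuts them upstream of a tRNA-like RNA, and the end is protected by a triple helix of U-rich stretches with an A-rich tail written into the genome. The last 100 bases before each cut are shown because they are the part of the molecules that takes the place of a poly(A) tail. They are from GENCODE release 44 on hg38, plus strand, and the capitals mark stretches of 8 or more bases found in both ends.
MALAT1 end, chr11:65506017-65506116: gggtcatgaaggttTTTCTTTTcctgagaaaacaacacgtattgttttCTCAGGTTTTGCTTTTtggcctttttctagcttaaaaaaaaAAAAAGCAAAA
NEAT1_2 end, chr11:65445441-65445540: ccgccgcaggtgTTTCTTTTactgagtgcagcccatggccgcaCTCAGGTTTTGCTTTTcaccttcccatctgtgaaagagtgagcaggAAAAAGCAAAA

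The ends shared 3 such stretches, of 8, 16 and 11 bases, in the same order. The short NEAT1 transcript, NEAT1_1, is polyadenylated, and the site lies within the same exon that NEAT1_2 reads through. A window of 150 bases that ends shortly after the poly(A) signal of that site is shown with TGTA, the element read by the cleavage factor of NUDT21 and CPSF6, and the signal itself, AATAAA, in capitals.
NEAT1_1 end, chr11:65426383-65426532: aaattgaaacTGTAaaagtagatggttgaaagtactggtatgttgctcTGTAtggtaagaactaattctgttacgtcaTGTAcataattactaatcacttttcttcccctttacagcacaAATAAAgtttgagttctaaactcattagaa

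The window held TGTA 3 times and AATAAA once on the plus strand, the only strand searched, and these motifs did not overlap. Of the last 150 bases of 30589 transcripts, 55.1% held TGTA, 9.01% held it 3 times or more and 50.6% held AATAAA. Genomic A stretches are a place where an oligo(dT) bead can bind. A run of 9 or more A was found once in MALAT1, the 13 bases in the end printed above, 6 times in NEAT1_2, where the longest had 22, and 21 times in KCNQ1OT1, where the longest had 29. These counts are over 10.4 kb of MALAT1, 22.7 kb of NEAT1_2 and 91.7 kb of KCNQ1OT1, and no background rate was taken. The table gives 1 value for each gene and does not separate NEAT1_1 from NEAT1_2.

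PQBP1 itself fell. Its FPKM, the number of fragments scaled to transcript length and to all mapped fragments of the sample, was 7.18, 6.67 and 6.93 in the shNC samples and 1.68, 1.72 and 1.44 in the shPQBP1 samples. The groups were far apart, and the log2 fold change was −2.04 (SE 0.10, limma, adjusted p = 0.00154). The targeted gene thus went with the labels in all 6 samples. Of 12 genes that mark ovarian carcinoma or the epithelial or mesenchymal state, 8 had a mean FPKM of at least 1, led by VIM, and WT1, EPCAM, MUC16 and CDH1 lay below 1. Among 6 markers of other cells in the table, PTPRC was at 0 in all samples and only CD68 was above 1, with a mean of 14.6. The summed FPKM of these 6 was 9.43 to 15.8 in shNC and 12.2 to 21.3 in shPQBP1. Sample 1 of shNC stood apart, with correlations of 0.926 to 0.955 with the other samples, and its 2277 genes of lowest GC content lay 0.48 below their 6-sample mean (median, log2), against −0.01 to 0.22 in the other samples. The number of fragments per sample is unknown, so precision was judged from the spread between samples.

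The 7 genes covered a wide range of levels on the FPKM scale, which is per length. The libraries are poly(A) RNA, and how fully they hold MALAT1 and NEAT1_2 was not tested. The order of FPKM therefore need not be the order of abundance in the cells. By FPKM the proteins' mRNAs led. SFPQ had a mean of 62.2 ± 2.47 (SD, n = 3) in shNC, NONO 50.2 ± 5.01, PSPC1 17.1 ± 0.436 and RBM14 14.0 ± 1.12. MALAT1 followed with 9.87 ± 4.67, NEAT1 with 1.89 ± 0.330 and KCNQ1OT1 with 0.0267 ± 0.0153. In both groups the samples of SFPQ lay above all samples of NONO, those of NONO above all of PSPC1, those of MALAT1 above all of NEAT1 and those of NEAT1 above all of KCNQ1OT1. RBM14 and MALAT1 overlapped in both groups, and PSPC1 and RBM14 overlapped in shPQBP1 and were separate in shNC.

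None of the 6 tested genes was called different upon PQBP1 depletion at an adjusted p under 0.05 (limma), where 2.91% of all tested genes were called. None had an unadjusted p under 0.05, against 23.6% of all tested genes, and none had a change over 2-fold with an unadjusted p under 0.05, the study's rule, against 1.52%. In 1 of the 6, PSPC1, the groups did not overlap, against 34.4% of all tested genes. Their median log2 fold change was −0.02, and that of all tested genes was 0.02. In bulk RNA a change in the number of cells of a kind and in RNA per cell cannot be told apart.

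**Figure D1:**
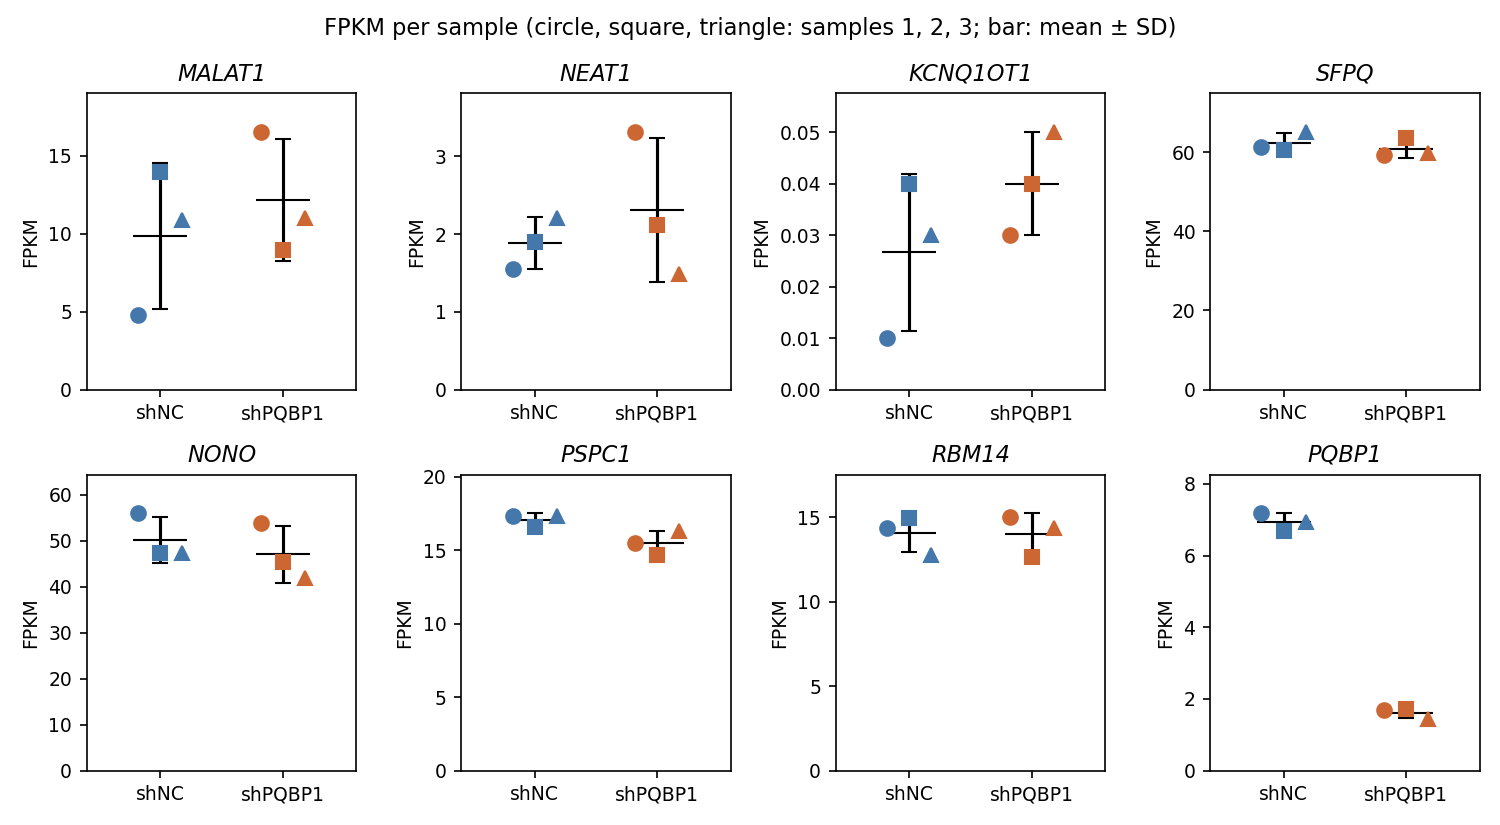
FPKM (y axis, linear from 0, a scale for each gene) of MALAT1, NEAT1, KCNQ1OT1, SFPQ, NONO, PSPC1, RBM14 and the targeted gene PQBP1 in 3 shNC and 3 shPQBP1 samples (x axis). Points are samples, with circle, square and triangle for samples 1, 2 and 3, and lines give the mean ± SD. PQBP1 fell from 6.67 to 7.18 down to 1.44 to 1.72, while the groups overlapped in each of the other genes apart from PSPC1.

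MALAT1 (ENSG00000251562) lies on the plus strand of hg38 at chr11:65497640-65508073 and is annotated as a long non-coding RNA. Its FPKM was 4.77, 13.94 and 10.9 in the shNC samples and 16.53, 8.97 and 11.03 in the shPQBP1 samples. The lowest value was that of shNC sample 1 and the highest that of shPQBP1 sample 1, and the remaining 4 samples were mixed. Within shNC the highest sample was 2.92-fold above the lowest. The log2 fold change was 0.39 (SE 0.43, 95% interval −0.65 to 1.42, limma, adjusted p = 0.590), and an exact permutation test gave p = 0.6, two-sided. The interval runs from 0.636-fold to 2.68-fold, so that it holds both a 2-fold rise and no change. MALAT1's spread within groups was larger than that of 95.5% of all tested genes. Without shNC sample 1 the log2 fold change was −0.06.

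NEAT1 (ENSG00000245532) lies 52099 bases upstream of MALAT1 on the same strand, at chr11:65422774-65445540. Its FPKM was 1.55, 1.9 and 2.21 in shNC and 3.31, 2.12 and 1.49 in shPQBP1. Both the highest and the lowest of the 6 values belonged to shPQBP1, so the control samples lay inside the range of the knockdown samples. The log2 fold change was 0.22 (SE 0.29, 95% interval −0.49 to 0.93, limma, adjusted p = 0.656; exact permutation p = 0.7). In folds the interval runs from 0.710 to 1.91. The value turned to −0.07 without shPQBP1 sample 1 and to −0.08 after correction for GC content and transcript length. NEAT1's spread within groups exceeded that of 87.8% of tested genes.

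KCNQ1OT1 (ENSG00000269821) lies on the minus strand at chr11:2597308-2700003, inside KCNQ1, which runs on the other strand. Its FPKM was 0.01, 0.04 and 0.03 in shNC and 0.03, 0.04 and 0.05 in shPQBP1. These values overlapped and lay far below the mean FPKM of 1 needed for the test across genes. An exact permutation test gave p = 0.5. The values carry 2 decimals, so the 6 samples lie 1 to 5 rounding steps of 0.01 above 0. FPKM is per length, so a step stands for more fragments in a longer transcript. Multiplied by length in kb, a step is 0.917 for the 91.7 kb of KCNQ1OT1 and 0.104 for the 10.4 kb of MALAT1. The low FPKM of KCNQ1OT1 therefore need not mean few fragments, and their number is unknown. KCNQ1 was listed at 0 to 0.02, and the strand setting of the counting is not given in the sources used here, so sense and antisense fragments could not be told apart.

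Ratios within a sample were taken with the pseudocount of 0.1 added to each level, so that the scaling of a sample largely cancels for MALAT1, NEAT1 and the proteins but not for KCNQ1OT1, which lies below the pseudocount. The log2 ratio of NEAT1 to MALAT1 was −2.21 ± 0.63 (SD, n = 3) in shNC and −2.37 ± 0.40 in shPQBP1, a difference of −0.17 (exact permutation p = 0.8). The difference turned to 0.16 without shNC sample 1 and to 0.050 without shPQBP1 sample 3, and was −0.47 without shNC sample 2. KCNQ1OT1 to MALAT1 differed by −0.24 (exact permutation p = 0.7), which turned to 0.14 with a pseudocount of 0.01, to 0.12 without shNC sample 1 and to 0.058 without shPQBP1 sample 1. NEAT1 to the mean of SFPQ, NONO and PSPC1 differed by 0.29 (exact permutation p = 0.4), with 0.034 without shPQBP1 sample 1, 0.13 without shNC sample 1 and 0.52 without shPQBP1 sample 3. With 3 ratios compared, each adjusted p was 0.8, and 3 against 3 samples cannot give an exact p below 0.1.

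In the single samples MALAT1 and NEAT1 did not always move together. On the log2(FPKM + 0.1) scale, both lay 0.68 above their own mean in shPQBP1 sample 1, while in shNC sample 1 MALAT1 lay 1.09 below and NEAT1 0.36 below. In shPQBP1 sample 3 MALAT1 stood at 0.10 and NEAT1 at −0.42. The genes of lowest GC content moved in the same direction as MALAT1 in shNC samples 1 and 2 and in shPQBP1 samples 1 and 3. MALAT1 has 42.0% GC and NEAT1_2 44.1%, which is higher than in 26.8% and 36.0% of tested genes. After correction for GC content and length MALAT1's log2 fold change was 0.14. The part of base composition in the lncRNA values was not tested.

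**Figure D2:**
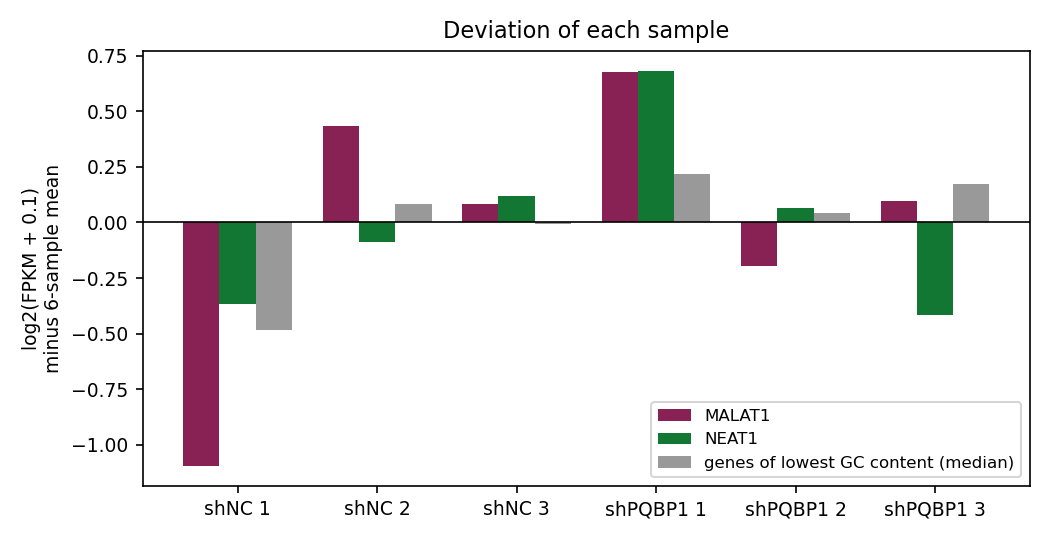
Deviation of each sample (x axis, 3 shNC and 3 shPQBP1) from the gene's mean over the 6 samples on the log2(FPKM + 0.1) scale (y axis), for MALAT1, NEAT1 and the median of 2277 genes with the lowest GC content. In shNC sample 1 all 3 bars point down, to −1.09, −0.36 and −0.48, and in shPQBP1 sample 1 all point up, to 0.68, 0.68 and 0.22.

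The genes whose 6 values ran closest to MALAT1's, by the root mean square difference of centred log2 values over 6 samples and 11412 genes, were AL662795 at 0.0393, LIG4 at 0.123 and TMF1 at 0.124. AL662795 (ENSG00000280128), an unclassified transcript on chromosome 6, had FPKM of 0.63, 1.98 and 1.6 in shNC and 2.32, 1.27 and 1.66 in shPQBP1. Its sequence shared no stretch of 15 bases with MALAT1 on either strand. NEAT1 was in place 1994 among MALAT1's neighbours, at 0.436. NEAT1's nearest were SLC25A24, which carries ATP across the inner mitochondrial membrane, at 0.107, CCDC91 at 0.135 and FRMD3 at 0.157. KCNQ1OT1's nearest were TRAF6 at 0.0309, TRIM5 at 0.0388 and PATL1 at 0.0391, where the pseudocount of 0.1 flattens its own values.

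The 3 DBHS genes gave narrower intervals. SFPQ (ENSG00000116560, chr1:35176378-35193446, minus strand), which binds NEAT1 and also acts in splicing and transcription, had FPKM of 61.22, 60.42 and 65.04 in shNC and 59.33, 63.56 and 59.68 in shPQBP1. The 6 values were close to each other and the groups overlapped. The log2 fold change was −0.03 (SE 0.07, 95% interval −0.20 to 0.13, limma, adjusted p = 0.786; exact permutation p = 0.5), or 0.872-fold to 1.10-fold. SFPQ had one of the smallest spreads within groups, smaller than all but 4.95% of tested genes.

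NONO (ENSG00000147140, chrX:71254814-71301522, plus strand), the usual partner of SFPQ in heterodimers, had FPKM of 56.03, 47.28 and 47.41 in shNC and 53.85, 45.36 and 41.9 in shPQBP1. Sample 1 was the highest in each group, and the groups overlapped. The log2 fold change was −0.10 (SE 0.12, 95% interval −0.39 to 0.20, limma, adjusted p = 0.631; exact permutation p = 0.5). The start of NONO overlaps that of ZMYM3 on the other strand. ZMYM3, a zinc finger protein of chromatin complexes, was lower in every shPQBP1 sample, at a mean FPKM of 5.40 ± 0.107 against 6.67 ± 0.169, and was not called (log2 fold change −0.30, limma, adjusted p = 0.0888).

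PSPC1 (ENSG00000121390, chr13:19674752-19783019, minus strand), the protein by which paraspeckles were first described, had FPKM of 17.36, 16.59 and 17.33 in shNC and 15.5, 14.7 and 16.33 in shPQBP1. All shPQBP1 samples lay below all shNC samples. The difference was small, with a log2 fold change of −0.14 (SE 0.08, 95% interval −0.32 to 0.04, limma, unadjusted p = 0.109, adjusted p = 0.296), and the exact permutation p of 0.1 is the smallest that 3 against 3 samples allow. In folds the interval runs from 0.800 to 1.03. The value stayed between −0.18 and −0.10 over 15 alternative settings. PSPC1-AS2, which overlaps its end on the other strand, had FPKM of 0.14 to 0.45 in the 6 samples.

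RBM14 (ENSG00000239306, chr11:66616626-66629934, plus strand) had FPKM of 14.38, 14.95 and 12.79 in shNC and 15.03, 12.65 and 14.37 in shPQBP1. The groups overlapped nearly in full. The log2 fold change was 0.00 on rounding (SE 0.10, 95% interval −0.25 to 0.25, limma, adjusted p = 0.987; exact permutation p = 0.9). RBM14 shares its first exons with RBM14-RBM4, a readthrough gene whose FPKM of 10.92, 16.16 and 8.78 in shNC and 7.78, 13.44 and 10.67 in shPQBP1 varied widely within groups. How fragments were divided between the 2 annotations is not given, so the values of both are uncertain.

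**Figure D3:**
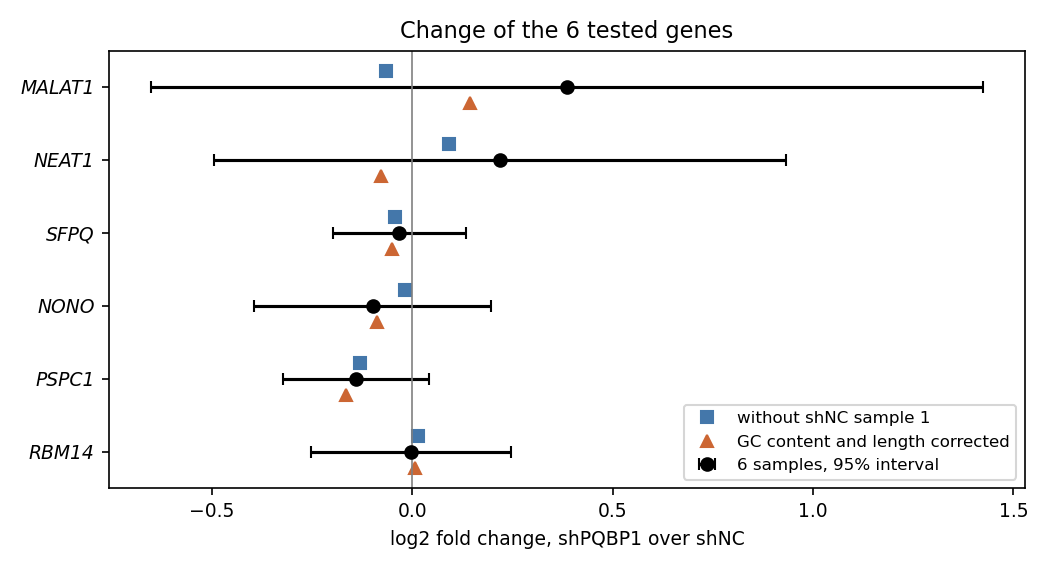
log2 fold change of shPQBP1 over shNC (x axis) for the 6 tested genes (y axis). Circles give the fit of all 6 samples with its 95% interval, squares the fit without shNC sample 1 and triangles the fit corrected for GC content and transcript length. Every interval includes 0, and those of MALAT1 (−0.65 to 1.42) and NEAT1 (−0.49 to 0.93) are the widest.

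Other paraspeckle proteins were read as a list of 39 genes, of which 35 rows were tested. None was called at an adjusted p under 0.05 (limma), and before adjustment 6 of 35 had a p under 0.05, 1 with a higher and 5 with a lower level. Over all tested genes the shares were 2.91% and 23.6%, and the other lists below are read against the same shares. The median log2 fold change was −0.06, against 0.02 over all tested genes. The 2 with the smallest p were UBAP2L and AHDC1. UBAP2L, which also takes part in stress granules, had FPKM of 35.82, 33.87 and 33.21 in shNC and 28.37, 29.62 and 28.09 in shPQBP1, with no overlap (log2 fold change −0.26, limma, adjusted p = 0.105). With the GC correction its adjusted p was 0.0305. AHDC1, a DNA-binding protein gene, stood at 1.25 ± 0.139 against 0.797 ± 0.0643 FPKM (log2 fold change −0.59, limma, adjusted p = 0.108). MATR3, a nuclear matrix protein, was listed under 2 gene identifiers whose values traded places between samples, 2.62 to 22.64 for one and 0.18 to 40.5 for the other, and its level is uncertain. It was named after its values were seen.

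Of 25 symbols for other long non-coding RNAs, many of them nuclear, 21 were in the table and 9 were tested. Of these 1 rose and none fell at an adjusted p under 0.05, and 12 were too low to test. The median log2 fold change was 0.23, and 0.11 without shNC sample 1. OIP5-AS1 (cyrano), a conserved RNA that is also found in the cytoplasm, had FPKM of 4.15, 4.48 and 4.58 in shNC and 6.55, 6.40 and 6.18 in shPQBP1. The groups were well separated, with a log2 fold change of 0.53 (SE 0.08, limma, adjusted p = 0.0313). The call held without shNC sample 1 (adjusted p = 0.0328, limma) and was lost when any of the other 5 samples was left out (adjusted p = 0.0876 to 0.145, limma).

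Genes listed as making the ends shown above or binding MALAT1 were next. The list held RNase P, RNase Z and triple-helix factors, and also METTL3, METTL14, YTHDC1 and HNRNPC, which are not part of RNase P or RNase Z. Of its 15 tested genes none was called and 1, POP1, had an unadjusted p under 0.05. POP1, a protein subunit of RNase P, stood at 17.0 ± 1.55 FPKM in shNC and 13.8 ± 1.66 in shPQBP1 (log2 fold change −0.30, limma, adjusted p = 0.196), and RPP38, another subunit, at 6.04 ± 1.77 and 8.06 ± 0.348 (0.45, limma, adjusted p = 0.229). The median of these 15 was −0.02. Of 18 cleavage and polyadenylation factors, none was called, 3 had a p under 0.05 before adjustment (1 higher, 2 lower), and the median was 0.01. CPSF4 and CPSF1, subunits of the complex that reads AATAAA, had the smallest p. CPSF4 stood at 3.27 ± 0.376 and 2.23 ± 0.283 FPKM (−0.53, limma, adjusted p = 0.0996) and CPSF1 at 13.3 ± 1.13 and 10.4 ± 0.890 (−0.35, limma, adjusted p = 0.124). Without shNC sample 1, CLP1, named after its values were seen, was called higher (adjusted p = 0.0309, limma).

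Nuclear decay limits many non-coding RNAs through the exosome and its NEXT and PAXT adaptors. Of 22 tested genes listed for nuclear RNA decay none was called, 4 had a p under 0.05 before adjustment (1 higher, 3 lower), and the median was −0.06. The list also held genes such as XRN2 that are not part of the exosome, NEXT or PAXT. Its row for MPP6 (ENSG00000105926) is a gene other than the exosome cofactor MPHOSPH6, which was listed as well. EXOSC8, a core exosome subunit, stood at 15.5 ± 1.53 FPKM in shNC and 18.7 ± 0.474 in shPQBP1 (log2 fold change 0.27, limma, adjusted p = 0.158), and 0.02 after GC correction. ZC3H3, a PAXT partner, stood at 7.18 ± 0.940 and 5.46 ± 0.770 (−0.39, limma, adjusted p = 0.171).

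Paraspeckle proteins are known to hold edited RNAs in the nucleus, and SFPQ to sit on the promoter of CXCL8, an inflammatory chemokine. Of 9 tested genes in the list of retention and editing, 1 was called higher and none lower, with a median of 0.01. Before adjustment, 1 with a higher and 2 with a lower level had a p under 0.05. Like SLC7A2, EXOSC10 and HEXIM1 of this list, the called gene, CXCL8, is not itself a retention or editing factor. Its FPKM was 116.69, 117.64 and 123.96 in shNC and 165.33, 171.54 and 164.08 in shPQBP1. The groups were far apart (log2 fold change 0.48, SE 0.06, limma, adjusted p = 0.0189). After correction for GC content and length its log2 fold change was 0.17 (limma, adjusted p = 0.595). The call held without shNC sample 1 (adjusted p = 0.0190, limma) and was lost when any other sample was left out (adjusted p = 0.0666 to 0.106, limma).

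All 10 genes that are known to regulate NEAT1 transcription in stress, hypoxia or the p53 response were tested, and 1 was called higher and 1 lower. Before adjustment, 3 had a p under 0.05, 2 of them with a higher level. Over all tested genes 2.91% were called and 23.6% had a p under 0.05 before adjustment. EPAS1, the hypoxia factor HIF-2α that drives NEAT1 in low oxygen, had FPKM of 14.67, 14.19 and 14.81 in shNC and 20.33, 21.09 and 20.76 in shPQBP1. It rose by 0.51 on the log2 scale (SE 0.07, limma, adjusted p = 0.0217). STAT3, a transcription factor of cytokine signalling, had FPKM of 15.43, 13.82 and 14.39 in shNC and 9.73, 10.59 and 10.04 in shPQBP1, with a log2 fold change of −0.52 (SE 0.08, limma, adjusted p = 0.0315). In neither gene did the groups overlap. Both calls held without shNC sample 1 (adjusted p = 0.0192 and 0.0333, limma) and were lost when any other sample was left out (adjusted p = 0.0745 to 0.120 for EPAS1 and 0.0759 to 0.147 for STAT3, limma). The median of the list was 0.42, and 0.16 without shNC sample 1. NEAT1 itself was not called.

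**Figure D4:**
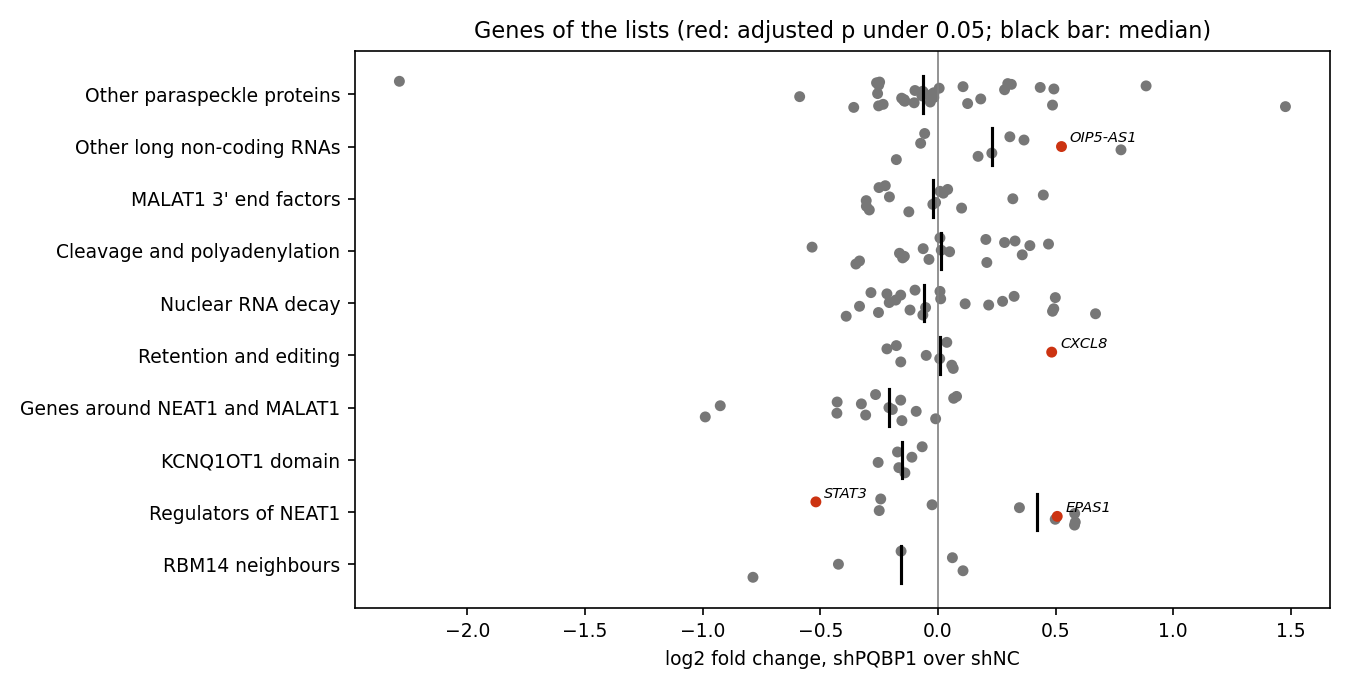
log2 fold change of shPQBP1 over shNC (x axis) for the tested genes of 10 lists (y axis), 1 point a gene, with the list's median as a black bar. Red points passed an adjusted p under 0.05: OIP5-AS1 (0.53), CXCL8 (0.48), EPAS1 (0.51) and STAT3 (−0.52). The points at −2.29 and 1.48 are the pair of MATR3 identifiers.

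On either side of NEAT1 and MALAT1 on 11q13, 15 genes were tested. None was called (2.91% of all tested genes were), 6 had an unadjusted p under 0.05 (23.6% of all tested genes did), all of them lower, and 13 of 15 log2 fold changes were negative, with a median of −0.21. RELA, the p65 subunit of NF-κB, starts 231 kb downstream of the NEAT1 start and had FPKM of 16.08, 12.69 and 14.28 in shNC and 6.07, 6.69 and 10.28 in shPQBP1. The groups did not overlap (log2 fold change −0.92, 95% interval −1.44 to −0.41, limma, adjusted p = 0.0749). The 15 genes are rich in GC, with a median of 61.1% against 47.5% in all tested genes. After GC correction the median was −0.11, RELA was not called (adjusted p = 0.0636, limma) and DPF2, a chromatin protein gene named after its values were seen, was called lower (adjusted p = 0.0478, limma). The part of base composition in this shift was not tested.

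**Figure D5:**
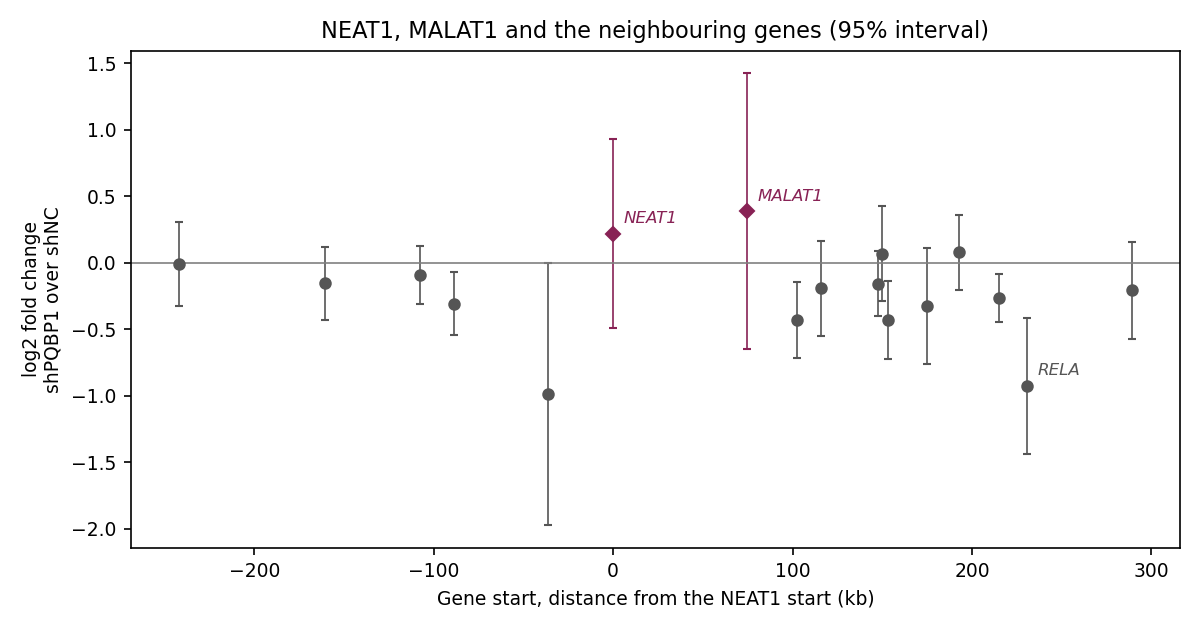
log2 fold change of shPQBP1 over shNC (y axis, bars give the 95% interval) against the distance of each gene's start from that of NEAT1 in kb (x axis), for NEAT1, MALAT1 and 15 neighbouring genes. NEAT1 at 0.22 and MALAT1 at 0.39 lie above 0, with intervals that include it, and 13 of the 15 neighbours lie below 0.

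In the imprinted domain of KCNQ1OT1 on 11p15, 6 genes were tested, none was called and none had an unadjusted p under 0.05. All 6 log2 fold changes were negative, from −0.25 to −0.07, with a median of −0.15 that was −0.02 after GC correction. The smallest p were those of CARS, a cysteinyl-tRNA synthetase gene, at 10.2 ± 0.812 and 9.03 ± 0.427 FPKM (log2 fold change −0.17, limma, adjusted p = 0.304), and CD81, a tetraspanin gene, at 8.84 ± 1.48 and 7.37 ± 0.955 (−0.25, limma, adjusted p = 0.340). The domain's imprinted growth inhibitor CDKN1C was too low to test.

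Around RBM14, 5 genes were tested and none was called. Before adjustment, 2 had a p under 0.05, with a lower level, against 23.6% of all tested genes. RBM4, a splicing factor encoded next to RBM14, had FPKM of 16.53, 14.67 and 15.30 in shNC and 11.19, 11.54 and 11.85 in shPQBP1 (log2 fold change −0.42, limma, adjusted p = 0.0511). The groups did not overlap, unlike those of RBM14. RBM4 was called lower with the GC correction (adjusted p = 0.0219, limma) and without shNC sample 1 (adjusted p = 0.0445, limma). How fragments were divided between RBM4 and the readthrough gene RBM14-RBM4 is not given, so the values of RBM4 are uncertain as well.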

How the data were processed

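Poly(A) RNA-seq of 3 shNC and 3 shPQBP1 samples of HEY cells was used, with groups taken from the sample labels. According to the submitters' processing notes and the methods, the authors used HISAT2 2.2.0 for mapping to hg38, SAMtools 1.9 for sorting, StringTie 1.3.0 for transcript assembly and edgeR for testing. The annotation release and strand setting are not given in the sources used here. The values used are FPKM per gene and sample as deposited by the authors, rounded to 2 decimals. The deposited fold changes, p-values and calls were not used. Depth per sample is unknown, so no counting interval is given.

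Values were taken as log2(FPKM + 0.1), and a fold change on this scale understates that of low genes. For the test across genes, limma 3.58.1 under R 4.3.3 was applied (mean-variance trend, two-sided, Benjamini-Hochberg adjustment) to genes whose FPKM averaged 1 or more across all samples. Exact permutation tests used scipy 1.17.1 under Python 3.11.15. The limma fit was checked on simulated data with independent normal noise, and the GC correction on a simulated linear slope.

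The 7 genes, the 10 gene lists and the tests were chosen with earlier results of these data known. Named are the 7 genes, PQBP1, up to 5 called genes of a list or else the 2 of smallest p, overlapping genes, and the 3 genes nearest in pattern to each long non-coding RNA. Of these, 2 list genes are not reported here. Some genes stand in more than 1 list. An entry of the 11p15 list that lies on chromosome 16, TNFRSF12A, was left out. Positions, GC content and sequences are from GENCODE release 44 on hg38, which may differ from the authors' annotation, and 11385 of 11413 tested genes had a transcript there. Alternatives were other pseudocounts (1 and 0.01), low-value filters (none, and a mean of 10), median-of-ratios and quantile scaling, no trend, a correction for GC content and length (splines, 5 degrees of freedom), a replicate block and each sample left out in turn.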

Additional observations from a re-analysis of the deposited data

How the results depend on the processing

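None of the 7 genes was called in any alternative in which it was tested, which was 15 for most, 14 for NEAT1 (not tested at a mean FPKM of at least 10) and 1 for KCNQ1OT1 (no filter). With the correction for GC content and length, 1 of them had an unadjusted p under 0.05 (limma). PSPC1 had the smallest adjusted p of these genes in that setting (log2 fold change −0.16, limma, adjusted p = 0.140). Directions and sizes near 0 were not stable. MALAT1 turned from 0.39 to −0.064 (log2) without shNC replicate 1, with −0.064 to 0.70 over the 6 fits that leave out a sample. NEAT1 turned from 0.22 to −0.077 with the correction for GC content and length, and ran from −0.067 (without shPQBP1 replicate 1) to 0.48 over the fits that leave out a sample. NONO ran from −0.20 (without shPQBP1 replicate 1) to −0.017 (without shNC replicate 1). SFPQ ran from −0.064 to 0.00020 (without shNC replicate 3). RBM14 turned to 0.0059 with the GC correction, and to 0.016, 0.044 and 0.069 without shNC replicate 1, shNC replicate 2 and shPQBP1 replicate 2, with −0.068 as its lowest. KCNQ1OT1 moved from the main setting to 0.53 with a pseudocount of 0.01, and was 0.15 (limma, adjusted p = 0.651) with no filter. The cause was not tested.

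The number of all tested genes called was 332. It was 190 with no filter on low values, 211 with a mean FPKM of at least 10, 1006 with the GC and length correction, and 30 to 464 with 1 sample left out, where leaving out shNC sample 1 gave the highest number. The lower counts without a sample come with fewer samples. With the replicate block no gene was called by limma (1840 at an unadjusted p under 0.05), and PQBP1 had an adjusted p of 0.0686 at −2.04. Same-numbered samples did not deviate together (r = −0.19, −0.14 and −0.01), so the numbers were not taken as pairs. The list calls without shNC sample 1 and after GC correction were chosen after seeing the data. After GC correction UBAP2L, YTHDC1, EXOSC9 and DPF2 were called lower. Their lists, 1 call in each, were paraspeckle proteins, RNase P and other MALAT1 factors, nuclear decay and 11q13 neighbours, in that order. Among the RBM14 neighbours 2 genes were called lower, RBM4 being 1 of them. None was called in the list of retention and editing. YTHDC1 and EXOSC9 were named after their values were seen.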

Other observations

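Small RNAs are annotated inside both long RNAs and were listed near 0 in these libraries. They lie on the strand of the long RNA, so fragments of the small and the long RNA could not be told apart. Whether poly(A) libraries hold RNAs this short was not tested, so the values are no measure of the small RNAs. RF01684, the tRNA-like mascRNA that is released when the MALAT1 end is cut, had FPKM of 0.07, 0.03 and 0.07 in shNC and 0.05, 0.01 and 0.03 in shPQBP1. RF01871, a conserved element inside MALAT1, had FPKM of 0.17 in the shNC samples and 0.17 to 0.18 in the shPQBP1 samples. Within NEAT1, RF01955, RF01956, RF01957 and the microRNA gene MIR612 lay between 0 and 0.17. None was high enough to test.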
